A study of Mus musculus with 6 samples.

Results

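The mitosis and cytokinesis genes examined here are 58 genes of cell division, chosen by name: cyclins and kinases of mitotic entry, chromosome, kinetochore and spindle proteins, and the proteins of anaphase and cytokinesis. All 58 symbols were found, each once, among the 23282 gene entries of the count tables, and all 58 were among the 11092 genes with enough counts to test. Messenger RNA had been measured in RAW 264.7, a mouse macrophage cell line used as a model of osteoclast formation, in 6 samples collected at day 5 of osteoclast differentiation. The treatment label is control for 3 samples and CPN for the other 3, in a series titled for chaperonin 60 kDa. The labels give no genotype, strain, dose, source of chaperonin or inducer of differentiation for either group, and both groups are one line at one day. Libraries were made by QuantSeq, which reads the 3′ ends of transcripts. Nothing in the labels says whether the samples were separate cultures, so the spread behind each p-value may be technical. The comparison asked how the expression of these genes differed between CPN and control cells.

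A cell enters mitosis when cyclin B binds and activates the kinase CDK1. Condensin then compacts the chromosomes, kinetochores attach them to a spindle built and moved by kinesins, and the spindle assembly checkpoint holds back the anaphase-promoting complex until every chromosome is attached. That complex, a ubiquitin ligase, then releases sister chromatids, and the central spindle and an actin ring split the cell. Transcripts of most of these genes accumulate late in the cell cycle, and they are used as markers of dividing cells. Osteoclast precursors divide before they fuse into multinucleated osteoclasts, which no longer divide.

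All 58 mitosis genes had a negative fitted difference between CPN and control cells, as 50.5% of all genes tested did. Of these, 43 fell and none rose at an adjusted p of 0.05 by edgeR's quasi-likelihood test, where 6.39% of all 11092 genes tested fell and 7.62% rose. The median log2 fold change was -1.72 over the 58 genes and -0.0079 over all genes tested. Among the 43 that fell, 22 fell at least 4-fold, 18 fell between 2-fold and 4-fold and 3 fell by less. In 46 of the 58 genes every CPN library was below every control library, which was so for 15.7% of all genes tested. The direction has no counter-example in the fit: the highest log2 fold change was -0.31, in Ube2s, and the lowest was -3.03, in Kif4.

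**Figure D1:**
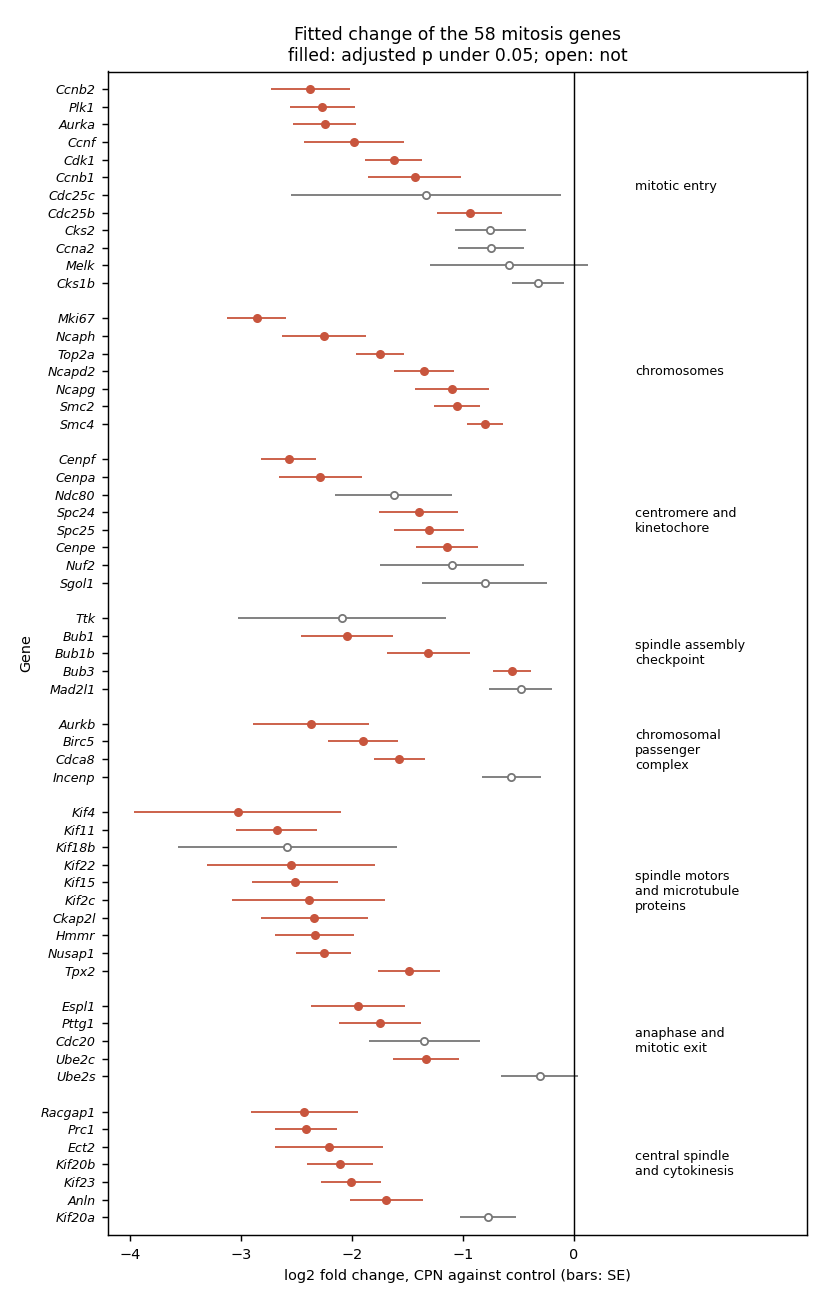
Fitted log2 fold change, CPN against control (horizontal axis, bars are SE), of the 58 genes by role; filled points passed an adjusted p of 0.05. All points lie left of 0, and 43 are filled.

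Summed over the 58 genes, expression was 4937, 2980 and 4473 CPM in control 1 to 3 and 1671, 1446 and 1579 CPM in CPN 1 to 3, where CPM is the count scaled to the size of the library, adjusted between libraries by TMM. The CPN libraries lay close together and below all controls, while control 2 lay below the other 2 controls. Control 2 was the lowest control in 50 of the 58 genes, against 38.3% of all genes tested, and its median log2 ratio to the mean of the other controls was -0.77 over the 58 genes and -0.01 over all genes. It was above every CPN library in 47 of the 58 genes. Without control 2, 47 of the 58 genes fell, where 7.18% of all genes fell. The number was 31 without control 1 and 29 without control 3, beside 3.62% and 3.13% of all genes. It was 36, 30 and 35 without CPN 1, CPN 2 and CPN 3, beside 4.07%, 3.32% and 4.82% of all genes.

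**Figure D2:**
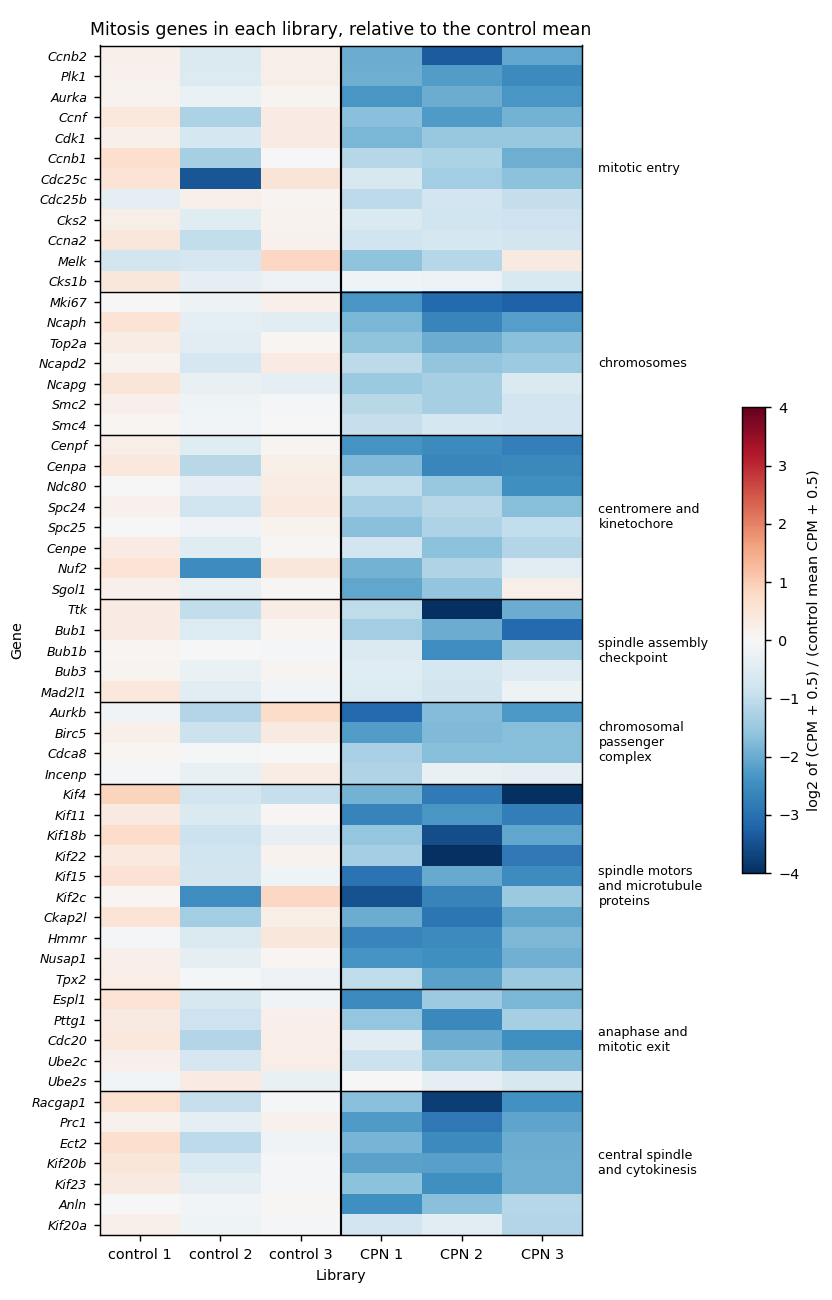
Level of each gene (rows, grouped by role) in each library (columns) as the log2 of its CPM over the control mean, 0.5 CPM added to both; the colour scale ends at -4 and 4. The 3 CPN columns are mostly blue, and control 2 is paler or bluer than the other 2 controls for most genes.

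The libraries held between 7957228 and 9713938 counts, and 3 counts correspond to between 0.309 and 0.377 CPM. Genes with a mean of 6 to 12 counts were at 0 in between 14% and 41.2% of cases per library, fewest in CPN 1 and next in control 3 (23.8%). Without both of these libraries, 19 of the 58 genes fell, beside 1.54% of all genes. Macrophage markers were present in both groups. Summed over 8 markers, their levels ran from 1929 to 2523 CPM in control and from 2744 to 3091 CPM in CPN libraries. Of these 8 markers 4 rose, where 7.62% of all genes tested did, and none fell. Those that rose were Fcgr1 (14.1-fold), Itgam (3.94-fold), Adgre1 (3.45-fold) and Cd14 (3.42-fold), with a largest adjusted p by edgeR of 0.00358. The 8 osteoclast markers summed to between 3267 and 3532 CPM in control and between 952 and 1512 CPM in CPN libraries, with Calcr at 3 counts in control and 0 in CPN. Of the 7 tested, 6 fell, where 6.39% of all genes tested did, and Mmp9 rose 2.95-fold (edgeR adjusted p = 0.000424). The falls were in Ocstamp (10.9-fold), Atp6v0d2 (5.19-fold), Dcstamp (4.98-fold), Oscar (3.77-fold), Ctsk (3.12-fold) and Acp5 (3.01-fold). Their largest adjusted p by edgeR was 0.0163. Among markers of other cell types, 4 stromal markers summed to at most 4.67 CPM in control and to between 10.5 and 12.2 CPM in CPN. Most of the CPN sum was Dcn, while Col1a2 and Pdgfra were at 0 in CPN. Of 4 granulocyte markers found, S100a8 gave most of the 18.0 to 34.6 CPM in CPN, against at most 0.117 CPM in control. Over the CPN libraries S100a8 had 564 counts, S100a9 had 1 and Mpo 6, while Elane was at 0 throughout. The 4 lymphocyte markers summed to at most 0.785 CPM in control and were at 0 in CPN. All samples are labelled as one line, and whether other cells were present was not tested. The part of these marker differences in the fall of the mitosis genes was not tested either. In bulk RNA, fewer dividing cells and less of a transcript in each dividing cell cannot be told apart.

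**Figure D3:**
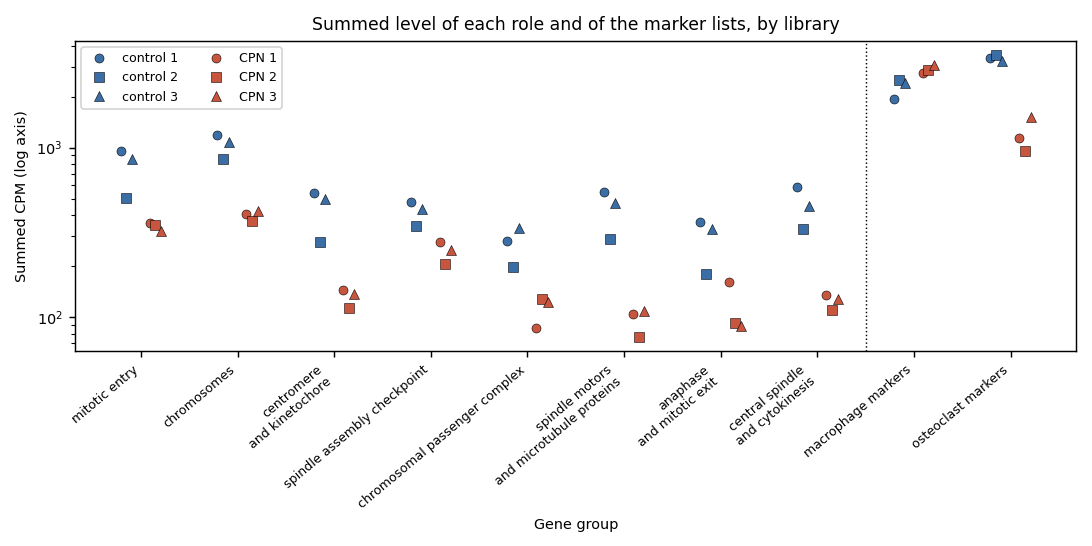
Summed CPM (log axis) of each role of the mitosis genes and of 8 macrophage and 8 osteoclast markers; each point is 1 library. For every role the 3 CPN points lie below the 3 control points, and control 2 is the lowest control.

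What these promoters share was read from the RefSeq promoter table (build GRCm38.p6). It held windows of 250 bases before and 50 bases from the gene start on for 50 of the 58 genes. Only the first window listed per gene was read. Those of Kif2c, Cdca8, Kif4, Pttg1 and Ube2s lie wholly inside the gene, so their start is not its outermost annotated start. That of Mad2l1 lies wholly before the annotated gene. As background, many late cell cycle genes carry a cell cycle genes homology region (CHR) near their start, read by the MuvB complexes with B-MYB and FOXM1 in dividing cells and as the repressive DREAM complex in resting cells, along with CCAAT boxes read by NF-Y. The letters searched on both strands were TTTGAA and TTCGAA for the CHR, and CCAAT. The end base of one can be the first of the other. CHR letters stood in 40 of 50 windows (80.0%), against 19.4% of 27025 promoter windows of the same length. Within 50 bases of the start they stood in 36 of 50 (72.0%), against 5.29% of all promoters and 3.58% of those of tested genes. CCAAT stood in 37 of 50 (74.0%), against 37.9% of all promoters, and both stood in 34 of 50 (68.0%), against 7.7%. Among genes that fell, 33 of 39 windows held CHR letters, and among genes that did not pass, 7 of 11.

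The following stretches show 3 genes that fell with both kinds of letters, 1 that holds both and did not pass (Cks1b), and 1 that fell and holds neither (Nusap1). Each runs 5′ to 3′ on the gene's strand from 110 bases before the start through the first 30 transcribed bases, with the matched letters in capitals. ATTGG and TTCAAA are the reverse-strand forms of CCAAT and TTTGAA. They lie at chr10:69352883-69353022 (minus strand) for Cdk1, chr9:70421525-70421664 (minus) for Ccnb2, chr7:80294341-80294480 (plus) for Prc1, chr3:89418262-89418401 (minus) for Cks1b and chr2:119618188-119618327 (plus) for Nusap1.
Cdk1: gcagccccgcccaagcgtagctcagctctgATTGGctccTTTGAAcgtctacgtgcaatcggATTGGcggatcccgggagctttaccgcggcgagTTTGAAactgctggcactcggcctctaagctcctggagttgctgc
Ccnb2: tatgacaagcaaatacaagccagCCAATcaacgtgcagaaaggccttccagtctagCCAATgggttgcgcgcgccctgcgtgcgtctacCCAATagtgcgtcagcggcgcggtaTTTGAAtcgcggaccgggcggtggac
Prc1: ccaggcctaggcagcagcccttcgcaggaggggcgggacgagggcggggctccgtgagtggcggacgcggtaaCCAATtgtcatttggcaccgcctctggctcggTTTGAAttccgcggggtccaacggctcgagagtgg
Cks1b: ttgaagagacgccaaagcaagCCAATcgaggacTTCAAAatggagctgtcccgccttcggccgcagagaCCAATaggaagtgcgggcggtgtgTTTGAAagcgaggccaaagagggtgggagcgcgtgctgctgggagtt
Nusap1: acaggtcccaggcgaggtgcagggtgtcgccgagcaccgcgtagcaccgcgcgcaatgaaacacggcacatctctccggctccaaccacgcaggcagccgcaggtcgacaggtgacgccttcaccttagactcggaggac
Counting the start as position 1, with no position 0, the CHR letters nearest the start begin at position -15 in Cdk1, 5 in Ccnb2, -5 in Prc1 and -17 in Cks1b. In Ccnb2 the CCAAT letters begin at positions -87, -54 and -21. A match of letters is a description of the window and not a measured binding site.

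**Figure D4:**
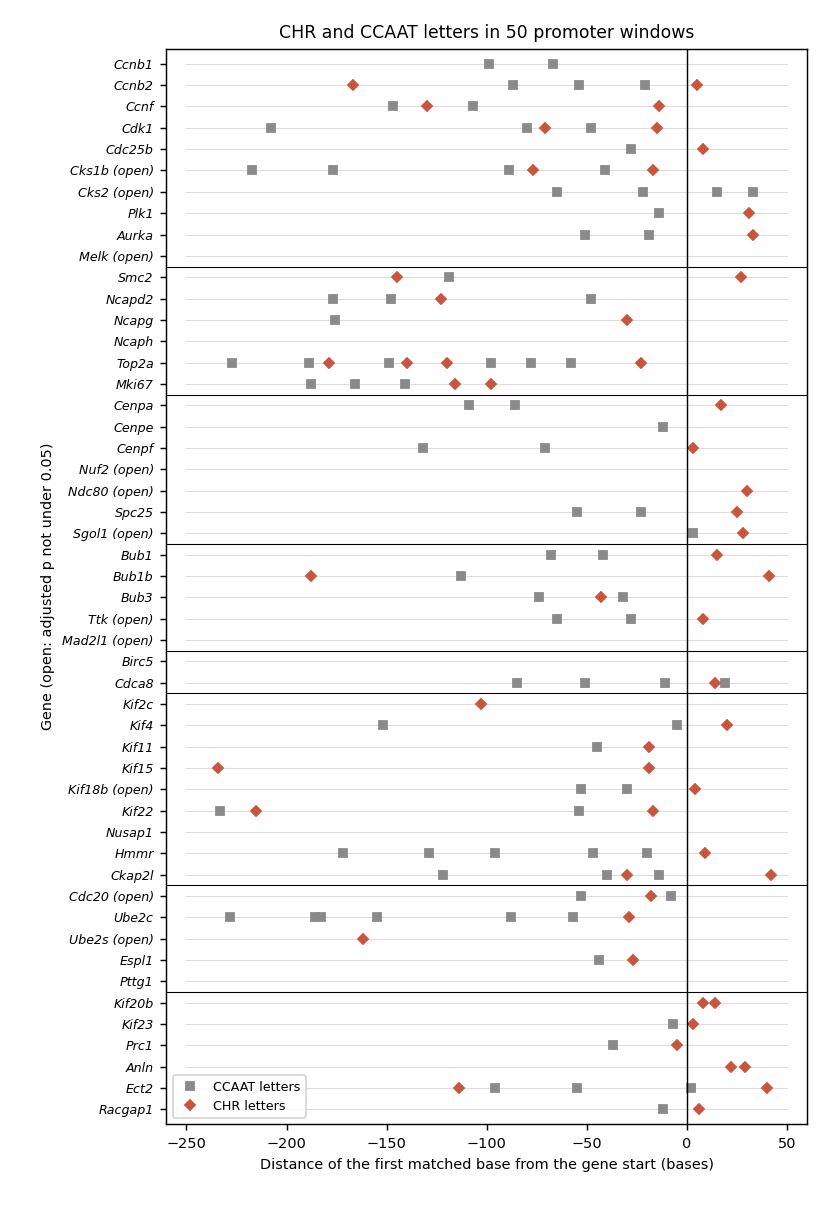
Positions of CHR and CCAAT letters (points) in the 50 promoter windows (rows, grouped by role), by distance in bases from the gene start (horizontal axis, the line marks the start). CHR letters lie mostly within 50 bases of the start, in 36 of 50 windows, and CCAAT letters mostly upstream of it.

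Of 12 genes of mitotic entry, 7 fell and 5 did not pass, with a median log2 fold change of -1.39. Aurka, the kinase that matures centrosomes and activates PLK1, had 54.1, 40.8 and 52.9 CPM in control 1 to 3 and 9.48, 12.2 and 9.43 CPM in CPN 1 to 3. Plk1, the Polo kinase of mitotic entry, had 70.0, 42.4 and 73.7 CPM in control and 15.6, 12.8 and 10.2 CPM in CPN. Ccnb2, a B-type cyclin, had 88.8, 52.2 and 91.6 CPM in control and 19.4, 7.33 and 17.9 CPM in CPN. In these 3 genes the lowest control was well above the highest CPN library, and CPN levels lay within a narrow band for the kinases. The falls were 4.75-fold for Aurka (log2 fold change -2.25 ± 0.280 SE, edgeR adjusted p = 0.000183), 4.82-fold for Plk1 (-2.27 ± 0.295, adjusted p = 0.000251) and 5.20-fold for Ccnb2 (-2.38 ± 0.357, adjusted p = 0.000735). Cdk1 itself, the catalytic partner of the mitotic cyclins, had 195, 104 and 212 CPM in control and 47.4, 59.1 and 59.2 CPM in CPN, a fall of 3.08-fold (edgeR adjusted p = 0.00106). Its groups did not overlap, with control 2 the nearest control.

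The other cyclins and regulators of CDK1 were less uniform. Ccnf fell 3.96-fold and Cdc25b, a phosphatase that activates CDK1, fell 1.92-fold with edgeR adjusted p = 0.0495, close to the threshold. Ccnb1, the main mitotic cyclin, fell 2.71-fold (edgeR adjusted p = 0.0379), with 87.7, 21.2 and 54.0 CPM in control and 24.2, 22.1 and 13.8 CPM in CPN. Control 2 of Ccnb1 thus lay inside the CPN range. The call of Ccnb1 ended without any library but control 2 (largest adjusted p by edgeR 0.218), that of Cdc25b without any but control 1 (up to 0.172) and that of Ccnf without control 1, control 3 or CPN 2 (up to 0.061). With limma-voom neither Ccnb1 (adjusted p = 0.077) nor Cdc25b (0.065) passed, and Cdc25b also missed the threshold with RLE scaling (0.0511), with no filter (0.0526) and with a filter of 5 CPM (0.0501). Reads of Ccnb1 are uncertain, since 5 pseudogenes match at least 100 of the last 250 bases of a Ccnb1 transcript at 95% identity or more. Ccna2, the cyclin of S phase and mitotic entry, had 153, 56.2 and 126 CPM in control and 64.6, 68.2 and 66.5 CPM in CPN and did not pass (edgeR adjusted p = 0.123). Its 3 CPN libraries lay close together, and control 2 was below them all. Ccna2 passed without control 2 (edgeR adjusted p = 0.00112) and with no filter on low counts (0.0201).

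Neither gene of the small CDK-binding proteins passed. Cks1b, which also serves degradation of the inhibitor p27, had 199, 112 and 124 CPM in control and 129, 124 and 94.2 CPM in CPN, a log2 fold change of -0.32 with a 95% interval from -0.83 to 0.19. A related gene, Cks1brt, matches the end of Cks1b over 250 bases at 95.6% identity and had 85 counts, so the split of reads between the pair is uncertain. Cks2 did not pass (-0.76 on the log2 scale, edgeR adjusted p = 0.151) although its groups did not overlap. Cdc25c and Melk had few counts, at most 7.46 CPM in any library for Cdc25c and 15.3 CPM for Melk, and their 95% intervals ran from -3.97 to 1.31 and from -2.13 to 0.96.

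All 7 chromosome genes fell, with a median log2 fold change of -1.35. In each the groups did not overlap, where CPN was below control without overlap in 15.7% of all genes tested. Mki67, which encodes the Ki-67 coat protein of mitotic chromosomes, had 163, 141 and 188 CPM in control and 32.0, 18.6 and 17 CPM in CPN. Controls and CPN libraries were far apart, and the fall of 7.27-fold had the smallest p of the 58 genes (edgeR adjusted p = 2.46e-05). Top2a, the topoisomerase that untangles sister DNA, had 332, 201 and 286 CPM in control and 89.2, 68.8 and 85.6 CPM in CPN (3.36-fold lower, edgeR adjusted p = 0.000155). Condensin is a ring of SMC2 and SMC4 closed by other subunits, and the fitted falls of its genes ran from 1.74-fold to 4.77-fold. The kleisin subunit gene Ncaph had 56.7, 30.3 and 29.0 CPM in control and 10.6, 5.76 and 7.94 CPM in CPN, and fell 4.77-fold (edgeR adjusted p = 0.00143). The other condensin I subunit genes fell 2.55-fold (Ncapd2) and 2.14-fold (Ncapg), and the core genes Smc2 and Smc4, which condensin I and II share, fell 2.08-fold and 1.74-fold. The 95% interval of Ncaph, from -3.07 to -1.44, did not overlap that of Smc4, from -1.15 to -0.45. It did overlap those of Ncapd2 (-1.94 to -0.77), Ncapg (-1.82 to -0.38) and Smc2 (-1.50 to -0.60), and the difference between genes was not tested. The call of Ncapg ended without control 1, control 3, CPN 1 or CPN 2 (largest adjusted p by edgeR 0.231), and Ncapg shares 944 exon bases with Lcorl on the other strand.

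**Figure D5:**
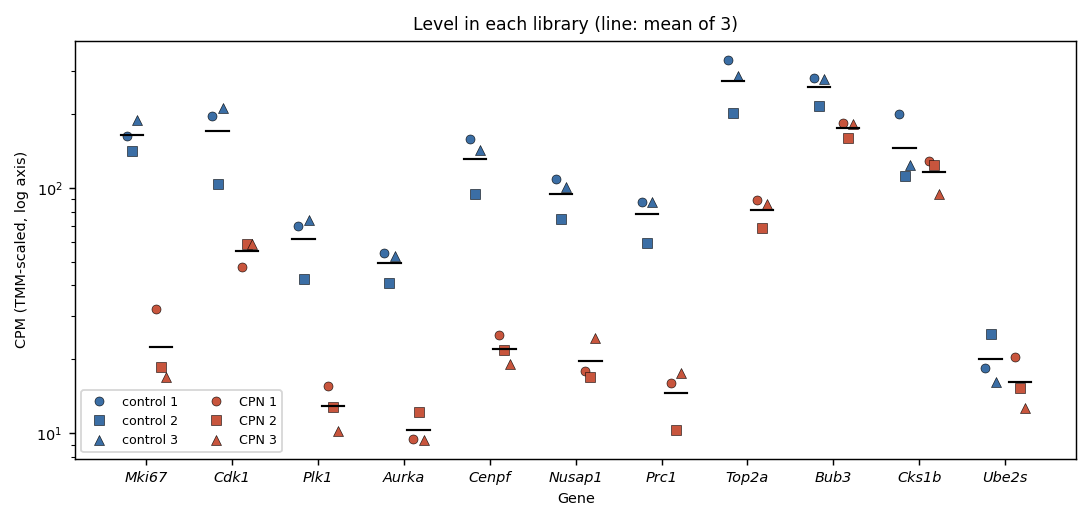
CPM (log axis) of 11 of the genes in each of the 6 libraries; symbols mark the replicate number and black lines the mean of 3. The groups are far apart for Mki67, Cenpf and Prc1, close for Bub3, and overlap for Cks1b and Ube2s.

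In the centromere and kinetochore group 5 of 8 genes fell, with a median of -1.35. Cenpf, a large protein of the outer kinetochore, had 158, 94.2 and 142 CPM in control and 25.2, 21.9 and 19.1 CPM in CPN, and fell 5.95-fold (edgeR adjusted p = 3.26e-05). Cenpa, the histone variant that marks centromeres, had 145, 49.8 and 126 CPM in control and 31.3, 17 and 17.5 CPM in CPN, and fell 4.88-fold (edgeR adjusted p = 0.00133). Both stood clear of overlap, and both kept their calls when any single library was left out. The end of Cenpf matches stretches in transcripts of other genes at 95% identity or more, so a part of its reads is uncertain, as it is for Ube2c and, with 1 pseudogene, for Ndc80. The kinesin gene Cenpe, which carries chromosomes to the spindle equator, fell 2.22-fold, and its call ended without control 1, control 3, CPN 2 or CPN 3 (largest adjusted p by edgeR 0.0807).

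The NDC80 complex, the 4-part coupler of kinetochores to microtubules, was lower in all 4 subunit genes, but only 2 passed. Spc25 had 30.2, 27.2 and 33.4 CPM in control and 9.12, 12.6 and 15 CPM in CPN, and fell 2.47-fold (edgeR adjusted p = 0.0155). Spc24 fell 2.64-fold (adjusted p = 0.0188). Ndc80 had 14.5, 10.8 and 17.8 CPM in control and 6.96, 4.72 and 2.23 CPM in CPN, without overlap, and missed the threshold at edgeR adjusted p = 0.0602. Nuf2 had 31.8, 3.35 and 29.6 CPM in control and 5.40, 9.17 and 15.6 CPM in CPN, so that control 2 was below every CPN library (edgeR adjusted p = 0.322). Without control 2, Nuf2 and Ndc80 passed as well. The calls of Spc25 and Spc24 ended without control 3 or CPN 1, that of Spc25 also without CPN 2 and that of Spc24 also without control 1 or CPN 3 (largest adjusted p by edgeR 0.117). Sgol1, the protector of centromeric cohesion, had 3.72 and 5.50 CPM in CPN 1 and 2 but 20.6 CPM in CPN 3, above all controls (14 to 20.1 CPM). Without CPN 3 it passed, with a log2 fold change of -1.91 in place of -0.81.

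Among 5 spindle assembly checkpoint genes 3 fell, with a median of -1.31. Bub1, the kinase that recruits checkpoint proteins to kinetochores, had 59.0, 31.6 and 49.0 CPM in control and 17.5, 11.3 and 4.96 CPM in CPN, and fell 4.13-fold (edgeR adjusted p = 0.00527). Bub1b, which encodes the checkpoint inhibitor BUBR1, had 63.3, 59.5 and 57.5 CPM in control and 39.8, 10.3 and 22.2 CPM in CPN, and fell 2.49-fold (adjusted p = 0.0333). Here the controls were tight and the CPN libraries spread. Bub3, the WD-repeat partner of both, fell least of the 43, 1.47-fold from 281, 216 and 277 CPM to 184, 159 and 182 CPM (edgeR adjusted p = 0.049). Bub3 lost its call without any library but control 2 (adjusted p up to 0.195), and Bub1b lost its call without control 1, control 3, CPN 2 or CPN 3 (up to 0.117). Mad2l1, which encodes the checkpoint effector MAD2, had a log2 fold change of -0.48 with a 95% interval from -1.10 to 0.13. The kinase gene Ttk had 15.5, 5.87 and 15.1 CPM in control and 5.76, 0 and 2.73 CPM in CPN (edgeR adjusted p = 0.174). In Ttk the lowest control was barely above the highest CPN library.

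The chromosomal passenger complex corrects faulty attachments and later marks the site of cleavage. Of its 4 genes 3 fell, with a median of -1.74. Cdca8, encoding borealin, had 70.7, 63.4 and 65.9 CPM in control and 26.6, 20.2 and 20.2 CPM in CPN, with little spread in either group (2.98-fold lower, edgeR adjusted p = 0.000634). Birc5, encoding survivin, had 97.4, 47.1 and 110 CPM in control and 17.5, 24.8 and 25.9 CPM in CPN (3.74-fold lower, adjusted p = 0.00134). Aurkb, the kinase of the complex, had 26.8, 12.8 and 49.7 CPM in control and 3, 8.51 and 5.71 CPM in CPN (5.19-fold lower, adjusted p = 0.00868), and its call ended without control 3 (edgeR adjusted p = 0.0849). Incenp, the scaffold, had 87.2, 73.3 and 111 CPM in control and 38.9, 73.9 and 71.1 CPM in CPN and did not pass (edgeR adjusted p = 0.196). Its CPN 2 library was level with control 2, and the 95% interval of its log2 fold change ran from -1.14 to 0.01.

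Spindle motors and microtubule proteins had the lowest median of the 8 roles, -2.45, and 9 of the 10 genes fell. Nusap1, which bundles spindle microtubules near chromosomes, had 109, 74.4 and 101 CPM in control and 18.0, 16.9 and 24.4 CPM in CPN, and fell 4.79-fold (edgeR adjusted p = 7.05e-05). Kif11, the motor that pushes the spindle poles apart, had 46.6, 24.1 and 37.0 CPM in control and 5.16, 6.81 and 4.84 CPM in CPN, and fell 6.4-fold (adjusted p = 0.000359). Hmmr, a spindle pole protein, had 47.2, 32.9 and 68.7 CPM in control and 7.56, 8.12 and 13.8 CPM in CPN, and fell 5.05-fold (adjusted p = 0.000792). In all 3 the lowest control was well above the highest CPN library. Kif15, a motor that backs up KIF11, fell 5.71-fold, Ckap2l 5.07-fold, and Tpx2, the activator of Aurora A on the spindle, 2.80-fold.

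The remaining motors had the widest errors of the role, with an SE of 0.69 or more on the log2 scale. The calls of Kif4 and Kif22 also ended with limma-voom (adjusted p = 0.102 and 0.0534). Kif4, a chromokinesin, had 30.1, 9.46 and 8.18 CPM in control and 3.96, 1.83 and 0 CPM in CPN (edgeR adjusted p = 0.0474), and its log2 fold change of -3.03 had a 95% interval from -5.06 to -1.01. It moved to -2.18 without control 1 and -4.12 without CPN 1, and the call of Kif4 ended without any library but control 2 (largest adjusted p by edgeR 0.297). Kif22, another chromokinesin, fell by 2.55 on the log2 scale, by 3.86 without CPN 1, and lost its call without control 1, control 3, CPN 2 or CPN 3 (largest adjusted p by edgeR 0.136). Kif2c, which depolymerizes microtubules at centromeres, had 45.5, 7.19 and 75.5 CPM in control and 3.36, 6.29 and 14.8 CPM in CPN, so that control 2 overlapped CPN (edgeR adjusted p = 0.0354). Its log2 fold change of -2.39 was -1.70 without control 3 and -3.15 without CPN 3, and its call ended without control 1, control 3, CPN 1 or CPN 2 (up to 0.198), with DESeq2 (adjusted p = 0.0931) and with limma-voom (0.136). Kif18b, at most 11.8 CPM in any library, did not pass (edgeR adjusted p = 0.108) though its groups did not overlap.

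For anaphase and mitotic exit, 3 of 5 genes fell, with a median of -1.35. Pttg1, which encodes securin, the inhibitor of separase, had 82.1, 35.5 and 72.7 CPM in control and 21.6, 10.2 and 24.7 CPM in CPN (3.36-fold lower, edgeR adjusted p = 0.0069). Espl1, which encodes separase, had 42.3, 18.4 and 25.9 CPM in control and 4.56, 10.2 and 7.69 CPM in CPN (3.86-fold lower, adjusted p = 0.00796). Inhibitor and protease thus fell together, and the call of Espl1 ended without control 1 (edgeR adjusted p = 0.0566). Ube2c, the conjugating enzyme that starts ubiquitin chains for the anaphase-promoting complex, had 127, 69.4 and 133 CPM in control and 60.7, 38.8 and 31.5 CPM in CPN (2.52-fold lower, edgeR adjusted p = 0.00935). Its call ended without control 3, CPN 2 or CPN 3 (up to 0.0642). Ube2s, the enzyme that extends those chains, had 18.4, 25.4 and 16.2 CPM in control and 20.4, 15.3 and 12.7 CPM in CPN, with overlapping groups (edgeR adjusted p = 0.636). Ube2s shares 183 exon bases with the ribosomal gene Rpl28 on the other strand, which had 33823 counts against 928, so its reads may include those of Rpl28. Cdc20, the activator of the complex, had 95.1, 30.9 and 85.0 CPM in control and 52.9, 17.3 and 12.4 CPM in CPN and did not pass (edgeR adjusted p = 0.0974). CPN 1 was the high CPN library of Cdc20, which passed without CPN 1 (log2 fold change -2.25 in place of -1.35) and without control 2.

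Of 7 central spindle and cytokinesis genes 6 fell, with a median of -2.11. The groups did not overlap in any of the 7, where CPN was below control without overlap in 15.7% of all genes tested. Prc1, which crosslinks antiparallel microtubules of the central spindle, had 87.4, 59.7 and 87.8 CPM in control and 16, 10.3 and 17.6 CPM in CPN, and fell 5.34-fold (edgeR adjusted p = 0.000103). Kif23, the motor of the centralspindlin complex, had 139, 84.0 and 104 CPM in control and 34.3, 19.4 and 27.5 CPM in CPN, and fell 4.02-fold (adjusted p = 0.000309). Kif20b, a kinesin that completes abscission, had 95.9, 44.2 and 64.6 CPM in control and 15, 14.9 and 17.4 CPM in CPN, and fell 4.33-fold (adjusted p = 0.000464). CPN libraries of Kif20b were nearly equal. Racgap1, the partner of KIF23 in centralspindlin, fell 5.40-fold, Ect2, the exchange factor that activates RhoA at the cleavage site, 4.62-fold, and Anln, the actin ring scaffold anillin, 3.24-fold. The call of Ect2 ended without control 1 or CPN 2 (largest adjusted p by edgeR 0.0769). Kif20a, the motor that brings Aurora B to the central spindle, had 67.4, 50.9 and 55.4 CPM in control and 34.2, 41.9 and 25.2 CPM in CPN and missed the threshold (1.71-fold, edgeR adjusted p = 0.0571). It shares 1271 exon bases with Cdc23 on the other strand, a subunit gene of the anaphase-promoting complex whose 2328 counts nearly match the 2394 of Kif20a and which fell 1.77-fold, so the pair's reads cannot be told apart where they overlap.

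The 15 genes that did not pass fell into 8 with an SE of at least 0.5 on the log2 scale (Cdc25c, Melk, Ndc80, Nuf2, Sgol1, Ttk, Kif18b and Cdc20) and 7 with a smaller one (Ccna2, Cks1b, Cks2, Mad2l1, Incenp, Ube2s and Kif20a). Of the 15, 8 passed under at least 1 of the 14 alternatives, among them Kif20a and Cdc20 in 5 each and Ndc80 in 4. In 5 of the 15 (Cks2, Ndc80, Ttk, Kif18b and Kif20a) the groups did not overlap. CPN was below control without overlap in 15.7% of all genes tested. Of the 43 that fell, 27 kept their call when each library was left out in turn, and 2, Ccnb1 and Kif2c, had overlapping groups. In all, 12 of the 58 genes share exon bases with another counted gene. Beside the pairs named above these are Ccna2, Cdc25b, Ncapd2, Cdca8, Kif4, Nusap1, Cdc20, Ube2c and Prc1, and none of their tested partners passed.

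Other genes of the division machinery were read from further lists that hold none of the 58. Their counts stand beside 6.39% of all genes tested that fell and 7.62% that rose. Of 34 further kinetochore and centromere genes 7 fell and 1 rose, with a median log2 fold change of -0.76. Pmf1, of the MIS12 complex, fell 2.30-fold (edgeR adjusted p = 0.00371). The 1 that rose was Zw10, of the complex that brings dynein to kinetochores and also acts in membrane traffic, with 25.7, 38.5 and 28.2 CPM in control and 73.8, 70.1 and 84.1 CPM in CPN (2.47-fold, edgeR adjusted p = 0.00225). Of 32 tested further spindle and cytokinesis genes 12 fell and none rose (median -1.34). The 3 with the smallest p were the mitotic kinase gene Pbk (5.65-fold), the abscission gene Cep55 (5.12-fold) and Iqgap3 (8.66-fold, and -3.89 on the log2 scale without CPN 3 in place of -3.11). Of 15 cohesin and remaining condensin genes 4 fell and none rose (median -0.43), among them the cohesin ring genes Smc1a (2.02-fold) and Rad21 (1.98-fold) and the acetyltransferase gene Esco2 (4.19-fold). The 16 subunits and regulators of the anaphase-promoting complex had a median of 0.01, and 3 fell (18.8%). These were Anapc13, Cdc23 and the inhibitor gene Fbxo5, whose log2 fold change of -1.90 was -2.80 without CPN 3. Calls of Rad21, Esco2, Anapc13, Cdc23 and Fbxo5 each ended without 4 or more of the libraries in turn (largest adjusted p by edgeR 0.179).

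Upstream of mitosis, 3 of 23 cell cycle transcription factor genes fell (13%) and none rose (median -0.35), beside 6.39% and 7.62% of all genes. Foxm1, an activator of late cell cycle genes, had 71.3, 36.4 and 47.1 CPM in control and 11.0, 24.1 and 16.1 CPM in CPN (3.02-fold lower, edgeR adjusted p = 0.00737). Mybl2, which encodes B-MYB, fell 3.33-fold (adjusted p = 0.0191) and E2f2 fell 2.73-fold (adjusted p = 0.0322). Foxm1 kept its call without any single library, whereas those of Mybl2 and E2f2 ended without control 1, control 3 or CPN 1 and 1 further library each (largest adjusted p by edgeR 0.118). Of 14 tested cell cycle inhibitors and brakes 2 rose and 2 fell (14.3%), beside 7.62% and 6.39% of all genes. Gadd45a, a stress-induced gene that can block CDK1, had 0, 0.12 and 0.818 CPM in control and 29.3, 31.3 and 43.7 CPM in CPN (edgeR adjusted p = 4.82e-05). The fitted rise of Gadd45a was 110.5-fold (log2 fold change 6.79). Control 3 held 7 of the 8 control counts of Gadd45a, and without it the log2 fold change was 8.98. Pooled counts without control 3 gave a ratio of 644, with an exact 95% counting interval from 115 to 25500. That interval covers counting error alone and not the spread between libraries. Gadd45b rose 2.67-fold, while Wee1, the kinase that restrains CDK1, fell 2.82-fold, and Cdkn1b, which encodes p27 and was named after its values were seen, fell 1.80-fold. Cdkn1b lost its call when control 3 or CPN 2 was left out (largest adjusted p by edgeR 0.0716). Cdkn1a, which encodes the CDK inhibitor p21, had 230, 315 and 214 CPM in control and 445, 357 and 297 CPM in CPN and did not pass (edgeR adjusted p = 0.104), though it did without control 2. Of 58 G1/S and DNA replication genes 17 fell (29.3%) and 1 rose, with a median of -0.57 against -1.72 in the 58 mitosis genes. The difference between these lists was not tested. Rrm1, of ribonucleotide reductase, fell 2.49-fold, and the replicative helicase genes Mcm6 and Mcm3 fell 4.69-fold and 2.5-fold. The 1 that rose was Ccnd2, a D-type cyclin named after its values were seen (4.07-fold, edgeR adjusted p = 0.0211). Its log2 fold change of 2.02 was 2.78 without control 2, and Ccnd2 passed without control 2 or CPN 2 but not without any other single library (largest adjusted p by edgeR 0.0809). Over all these further lists 48 of 192 tested genes fell (25%) and 4 rose, beside 6.39% and 7.62% of all genes. The number that fell was 22 without control 1 and 18 without control 3, beside 3.62% and 3.13% of all genes, and 26 without CPN 1 and 25 without CPN 2, beside 4.07% and 3.32%.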

How the data were processed

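Messenger RNA of 3 control and 3 CPN samples was analysed. The authors deposited 1 table of whole-number counts per gene for each sample. Per the submitters' processing notes, mm10, Bowtie2 and bedtools were used. Versions, annotation and strand use were not given in the sources used here, so a gene and an overlapping gene on the other strand cannot be told apart. No library matched another of its own group within sampling noise.

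Counts were tested with edgeR 4.0.16 in R 4.3.3 (TMM scaling, quasi-likelihood test, 3 samples against 3, Benjamini-Hochberg adjustment over all 11092 genes). Genes were kept by a minimum count of 10 and a minimum total of 15 in edgeR's filter. Log2 fold changes are CPN minus control, and ± gives the SE. The test was first tried on simulated data. Alternatives were other scalings, DESeq2 1.42.0, limma 3.58.1 (voom), other filters, a block by replicate number and leaving out each library. Leaving out control 3 and CPN 1 together was added after seeing the data.

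The 58 genes, their roles and the further lists were chosen with earlier results of these data known. Library values were given for Cdk1, Mki67 and the 3 genes with the smallest p in each role, but for Spc25 in place of Cenpe. They were also given for most genes that did not pass. For Cdc25c, Melk and Kif18b only the highest value was given, for Sgol1 a control range, and for Cks2 and Mad2l1 only fitted values. In each further list the 3 genes with the smallest p were named, as were Foxm1, Mybl2 and Cdkn1a. One result that this rule would name is not reported here. Values of Ccnb1, Kif2c and Kif4 were added after they were seen. Overlaps and near copies came from GENCODE M21 (GRCm38).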

Additional observations from a re-analysis of the deposited data

How the results depend on the processing

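None of the 58 genes passed as higher under any alternative, and between 39 and 47 fell under other scalings, filters, tools and the block, where 5.21% to 8.24% of all genes fell. The count of genes that fell was 29 to 47 with 1 library left out and 19 without control 3 and CPN 1 together. The median log2 fold change ran from -1.91 to -1.58 with 1 library left out. Of the 43 genes, 27 kept their call under each of 13 alternatives, and 18 also without control 3 and CPN 1 together. With the replicate number as a replicate block, 39 of the 58 genes fell (Ccnb1, Cdc25b, Ncapg, Spc24 and Bub3 did not pass). Over all genes tested, same-numbered samples did not deviate together from their group means (correlations -0.0508, 0.0195 and 0.0276). The labels do not say whether same-numbered samples share a culture or preparation. Correlations about means of 3 samples cannot decide it. Cdc25c turned to a log2 fold change of 0.175 with limma-voom (adjusted p = 0.959), and Melk, which ran from -1.49 to 0.18 with 1 library left out, to 0.18 without control 3 (edgeR adjusted p = 0.943) and 0.542 without control 3 and CPN 1 (adjusted p = 0.843). Both have few counts, and the cause was not tested.

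Over the 192 tested genes of the further lists, the number that fell was 48, beside 6.39% of all genes. With 1 library left out it ran from 18 to 66, beside 3.13% to 7.18% of all genes. Without control 3 and CPN 1, 6 fell and 1 rose. In that setting 1.54% of all genes fell and 273 of 11232 rose. Over all genes, 1554 passed, from 884 to 1954 with 1 library left out, and 446 without control 3 and CPN 1, where fewer samples entered the fit. Library totals alone moved the median of all genes from -0.0079 to -0.129 and the share of passing genes that rose from 54.4% to 43%, while 45 of the 58 genes fell. Cdc25c, Melk, Cks1b, Cks2, Mad2l1, Incenp and Ube2s passed under no alternative.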

Other observations

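Tested genes outside the 58 whose RefSeq promoter holds CHR letters within 50 bases of the start numbered 268. Of these 31 fell (11.6%) and 13 rose (4.85%), with a median log2 fold change of -0.27. Of the 8433 tested genes with a window outside the 58, 5.86% fell and 7.61% rose. Leaving out the genes of the further lists, 20 of 237 fell (8.44%), beside 5.58% of the 8281 genes with any window. Of 102 such genes that also hold CCAAT in the window, 10 fell (9.8%), beside the same 5.58%. These shares are descriptions without a test.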
